A study of Drosophila melanogaster with 6 samples.

Results

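The transcriptome of the intact adult thorax of Drosophila melanogaster was compared with that of the gut, with both tissues sampled from the same 2 genotypes. Thorax libraries, labelled as skeletal muscle, came from foxo RNAi flies and from control flies, and so did the gut libraries, so that 4 of the 6 libraries of the study enter the comparison, 2 for each tissue. Foxo RNAi flies combined Act88F-Gal4, a driver taken from a gene of the indirect flight muscles, with a UAS hairpin directed at foxo, whose product is a transcription factor held back by insulin signalling. Control flies had Act88F-Gal4 over w1118 instead, so every library has the driver. All flies were labelled as 10 days old and had been moved to a simple diet of sugar and yeast 2 to 3 days after eclosion. Time on the diet is also given as 10 days, which does not match that age and start, and this was not resolved. Thoraces were dissected whole and guts were dissected as intestines. Neither the sex of the flies nor the number pooled per library is stated in the labels. The other 2 libraries, of carcass, entered the fit and helped to estimate the spread between libraries. They also helped to set the scaling and the genotype term, so they bear on the fitted fold changes too. Each genotype and tissue has 1 library, so the spread comes from differences between the genotypes that the model does not absorb, and nothing says which libraries came from separate cultures.

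The thorax of an adult fly is filled largely by the indirect flight muscles, asynchronous muscles in which stretch re-activates contraction while calcium stays nearly steady. Their fibres are packed with mitochondria and burn carbohydrate and proline. Around them lie leg and jump muscles, cuticle, tracheal tubes, haemocytes, fat body and the thoracic ganglion. The gut is a tube of absorptive enterocytes, enteroendocrine cells and stem cells, wrapped in a thin layer of visceral muscle. Its enterocytes secrete proteases, lipases and glycosidases and acidify part of the lumen with a proton pump.

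Thorax and gut differed across much of the transcriptome. Of 9293 genes with enough reads to test, 2614 were higher in thorax (28.1% of genes tested) and 2459 were higher in gut (26.5%), by edgeR's quasi-likelihood test with genotype as a covariate and a Benjamini-Hochberg adjusted p under 0.05. Such genes are named as called below, and fold changes are log2 of thorax over gut with their standard errors (SE). Levels are CPM, read counts scaled to a common library total, here with factors from the trimmed mean of M-values (TMM). The median log2 fold change over all genes tested was -0.06. Of the called genes, 3956 differed by at least 2-fold in the same direction in each genotype, 2204 of them higher in thorax and 1752 higher in gut. At 64-fold or more, 363 genes were higher in thorax and 350 were higher in gut. Scaling by total counts in place of TMM shifted the median over all genes by 0.49 towards thorax and turned the split to 3450 genes higher in thorax and 1546 higher in gut. Counts of a list given below with the words "without control gut" and the like are those left when that library was left out. For most lists they are given where they differ by over 1.5 times or where a count of 0 changed. Calls fell to 2821 genes without the control gut library and to 3120 without the foxo RNAi gut library. Counted reads were 34385727 (foxo RNAi) and 17987881 (control) in thorax, against 14227132 (foxo RNAi) and 14532894 (control) in gut.

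**Figure D1:**
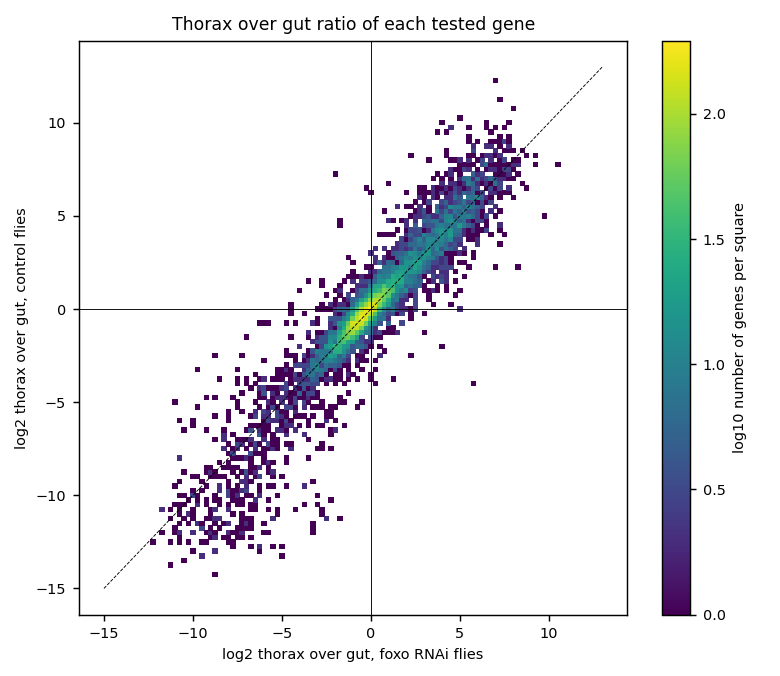
Log2 ratio of thorax over gut for each gene tested, in foxo RNAi flies (x axis) and in control flies (y axis), with 0.5 reads added to each count. Each square is coloured by the log10 number of genes it holds, and the dashed line marks equal ratios. In 89.2% of genes the ratio has the same sign in both genotypes, and the lower left arm lies below the line, with larger gut excesses in control flies.

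The ratio of thorax over gut had the same sign in both genotypes for 89.2% of genes tested. Across genes, which are not independent replicates, Pearson's r between the 2 genotypes' ratios was 0.94, a description of 4 libraries of unequal depth. The medians of the 2 genotypes lay further apart among gut genes. Over the 350 genes called at least 64-fold higher in gut, the median log2 ratio was -7.52 in foxo RNAi flies and -9.37 in control flies. These genes had a median of 2.24-fold more CPM in foxo RNAi thorax than in control thorax, and 112 of them were at least 4-fold higher in foxo RNAi thorax, against 17 that were at least 4-fold higher in control thorax. For the 363 genes called at least 64-fold higher in thorax, the medians were 6.17 in foxo RNAi flies and 6.76 in control flies. Of these, 35 were at least 4-fold higher in foxo RNAi gut, against 4 that were at least 4-fold higher in control gut. The part that gut tissue among the thorax material, or thorax tissue among the gut material, of either genotype plays in these values was not tested.

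Reads were spread over more genes in thorax than in gut. It took 335 (foxo RNAi) and 302 (control) genes to reach 50% of counted reads in thorax, against 210 (foxo RNAi) and 143 (control) genes in gut. The 10 genes with the most reads took 10.2% (foxo RNAi) and 10.7% (control) of reads in thorax, against 15.98% (foxo RNAi) and 20.95% (control) in gut. Genes called higher in thorax had a median genomic span of 5625 bases and a median exon length of 2839 bases. Genes called higher in gut had a median span of 2253 bases and a median exon length of 1778.5 bases, and for uncalled genes these medians were 2723 and 2121.5 bases. No reads at all were seen in either gut library for 104 of the genes called higher in thorax, and in either thorax library for 18 of those called higher in gut. Of all listed genes, 1798 lie inside another coding gene and have 0 counts in every library, so they were not measured. Among them are the muscle genes Mf, Mlp84B, TpnC4, Zasp67 and Lasp. Another 3875 overlap a coding gene in part and the strand setting of the counting is not given, so reads of such genes cannot be told from those of their neighbours. Of the genes named below these include Actn, Zasp66, Strn-Mlck, cpa, Tm1, TpnC25D, SERCA, Calx, para, GluRIIA, aret, mew, Eno, Tps1, Treh, Acon, Nc73EF, SdhB, ND-51, RFeSP, ATPsynbeta, Ant2, P5CDh1 and Gdh. They also include nub, Hnf4, Myo61F, mesh, Nrx-IV, Vha100-1, Vha100-4, Ctr1B, Fer1HCH, Fer2LCH, Tk, Duox, Hsp83, Got2, Rfabg and VGlut. Leaving out all genes with such an overlap, 1725 were called higher in thorax and 1589 higher in gut.

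Markers of both tissues matched their labels. The 10 thick filament genes tested took 2.61% (foxo RNAi) and 2.70% (control) of reads in thorax, against 0.0850% (foxo RNAi) and 0.0514% (control) in gut. The 16 Jonah proteases took 0.0501% (foxo RNAi) and 0.00441% (control) of reads in thorax, against 6.67% (foxo RNAi) and 10.6% (control) in gut. Other cell types were also present in the thorax. Fat body genes took 5.52% (foxo RNAi) and 4.81% (control) of reads in thorax, against 0.249% (foxo RNAi) and 0.369% (control) in gut. Their share of thorax reads was above that of the thick filament genes alone. Thin filament genes took a further 1.396% (foxo RNAi) and 2.044% (control) of thorax reads, and Z-disc genes 1.984% (foxo RNAi) and 2.741% (control). Together with the thick filament genes, these lists took a larger share than fat body genes in both thorax libraries. In bulk tissue, fewer cells of a type and less RNA per cell cannot be told apart, and this holds for every difference below. The gene lists compared below were drawn up for muscle, gut and the other cell types of either dissection. Counts of their called members stand beside 28.1% higher in thorax and 26.5% higher in gut over all genes tested.

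**Figure D2:**
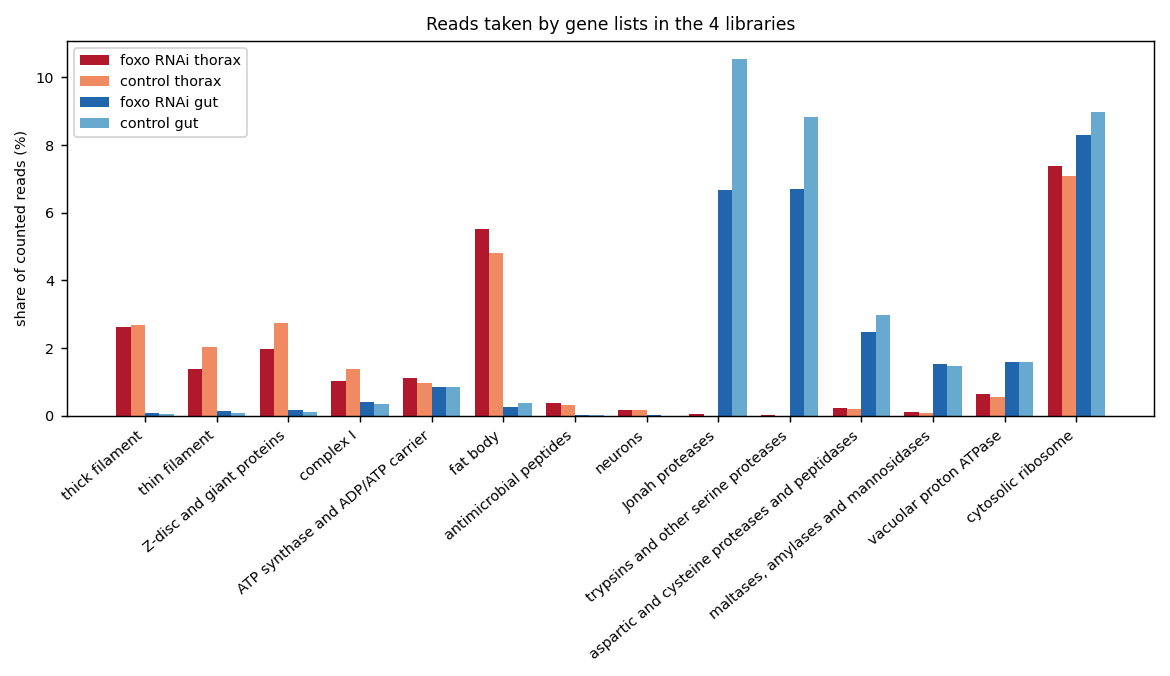
Share of counted reads (%) taken by the members of 14 gene lists in each library, as bars from 0, for foxo RNAi thorax, control thorax, foxo RNAi gut and control gut. Filament, Z-disc, complex I and fat body lists take a larger share in both thorax libraries, the digestive and proton pump lists take a larger share in both gut libraries, and ribosomal genes take between 7.09% and 8.96% in all 4.

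Thick filament genes were higher in thorax without exception among those tested. All 10 tested members were called higher in thorax, with a median log2 fold change of 4.85, and 2 further members were not measured. Myosin heavy chain, the motor protein encoded by the single muscle gene Mhc, had 5362 (foxo RNAi) and 3319 (control) CPM in thorax, against 313 (foxo RNAi) and 186 (control) CPM in gut. The regulatory light chain Mlc2 had 6165 (foxo RNAi) and 6891 (control) CPM in thorax, against 230.3 (foxo RNAi) and 191 (control) CPM in gut. Both genes were far above their gut levels in each genotype, with log2 fold changes of 4.13 ± 0.41 for Mhc (adjusted p = 0.00102, edgeR) and 4.96 ± 0.38 for Mlc2 (adjusted p = 0.000554). The essential light chain Mlc1 differed by 3.69 on the log2 scale, and paramyosin (Prm), the core protein of insect thick filaments, by 4.73. Flightin (fln), which binds myosin in flight muscle, had 18.3 (foxo RNAi) and 15.8 (control) CPM in thorax, against 0.0855 (foxo RNAi) and 0 (control) CPM in gut. Its gut level rests on 1 read, and the ratio of pooled levels was 385-fold with an exact 95% counting interval of 68.9 to 15202. The smallest differences were those of Mlp60A, a LIM protein of muscle (2.58), and of the myosin chaperone unc-45 (2.31).

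Giant proteins that tie thick filaments to the Z-disc stood out by level and by fold. Sallimus (sls), the titin-like gene at chr3L:2039681-2115611 (Release 6, minus strand), had 7103 (foxo RNAi) and 10840.3 (control) CPM in thorax, against 77.9 (foxo RNAi) and 48.9 (control) CPM in gut. Projectin (bt), the elastic protein of the connecting filament at chr4:724400-776474 on the plus strand, had 5165 (foxo RNAi) and 7169 (control) CPM in thorax, against 123 (foxo RNAi) and 59.996 (control) CPM in gut. Both thorax libraries lay far above both gut libraries for each gene, and the log2 fold changes were 7.07 ± 0.66 for sls (adjusted p = 0.000828, edgeR) and 6.06 ± 0.63 for bt (adjusted p = 0.00113). The obscurin homologue Unc-89, an M-line protein, differed by 6.46 ± 0.48, and the myosin kinase gene Strn-Mlck by 6.44 ± 0.54. Of 8 Z-disc genes tested, 6 were higher in thorax and 2 in gut, with a median of 3.27. Alpha-actinin (Actn), which crosslinks thin filaments, differed by 3.58, and Zasp66, a PDZ protein of the Z-disc, by 5.39. The 2 members higher in gut were cpa and cpb, the subunits of actin capping protein that all cells use, with log2 fold changes of -1.70 for cpa and -1.55 for cpb.

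Thin filament genes split by isoform. Of 15 tested, 11 were called higher in thorax, 2 higher in gut and 2 were not called, with a median of 3.44. Flight muscle actin (Act88F, at chr3R:15439969-15442177 on the plus strand), whose promoter drives the Gal4 in all these flies, had 2395 (foxo RNAi) and 7267 (control) CPM in thorax, against 9.14 (foxo RNAi) and 4.36 (control) CPM in gut. The control thorax was 3.03-fold above the foxo RNAi thorax, and both lay far above either gut library (log2 fold change 9.08 ± 1.11, adjusted p = 0.00184, edgeR). Actin 57B, a muscle actin also made in larvae, had 4137 (foxo RNAi) and 7128 (control) CPM in thorax, against 360.4 (foxo RNAi) and 237 (control) CPM in gut, and Act79B, an actin of leg and jump muscle, had 692 (foxo RNAi) and 425 (control) CPM in thorax, against 13.2 (foxo RNAi) and 4.07 (control) CPM in gut. The cytoplasmic actin Act5C ran the other way, with 1158 (foxo RNAi) and 733 (control) CPM in thorax, against 15450.3 (foxo RNAi) and 11809 (control) CPM in gut, and a log2 fold change of -3.87 ± 0.39 (adjusted p = 0.00103). Actin genes are close copies of each other, and the labels do not say how reads matching several of them were counted.

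Among the regulatory proteins of the thin filament, up (troponin T) had a log2 fold change of 3.63 and wupA (troponin I) one of 3.49. Troponin C, the calcium sensor, has several genes in flies, and they did not move together. TpnC41C had 102 (foxo RNAi) and 76.3 (control) CPM in thorax, against 0.598 (foxo RNAi) and 0.0969 (control) CPM in gut, with a log2 fold change of 7.96 ± 0.48 (adjusted p = 0.000465, edgeR). TpnC47D had 1.08 (foxo RNAi) and 0.268 (control) CPM in thorax, against 15.6 (foxo RNAi) and 15.8 (control) CPM in gut, with a log2 fold change of -4.62 ± 0.55 (adjusted p = 0.00174). The thorax libraries of TpnC41C and the gut libraries of TpnC47D were each higher than both libraries of the other tissue. TpnC73F was also higher in gut (-1.64), though without the control gut library its adjusted p was 0.0529. TpnC25D had a log2 fold change of 0.83 (adjusted p = 0.0868) and was not called. Without the control gut library 1 member was called higher in gut. Tropomyosin 2 (Tm2) was higher in thorax (2.50). Tm1, which also makes cytoplasmic isoforms, had 649 (foxo RNAi) and 558 (control) CPM in thorax, against 726 (foxo RNAi) and 530.1 (control) CPM in gut, and was not called (adjusted p = 0.893).

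**Figure D3:**
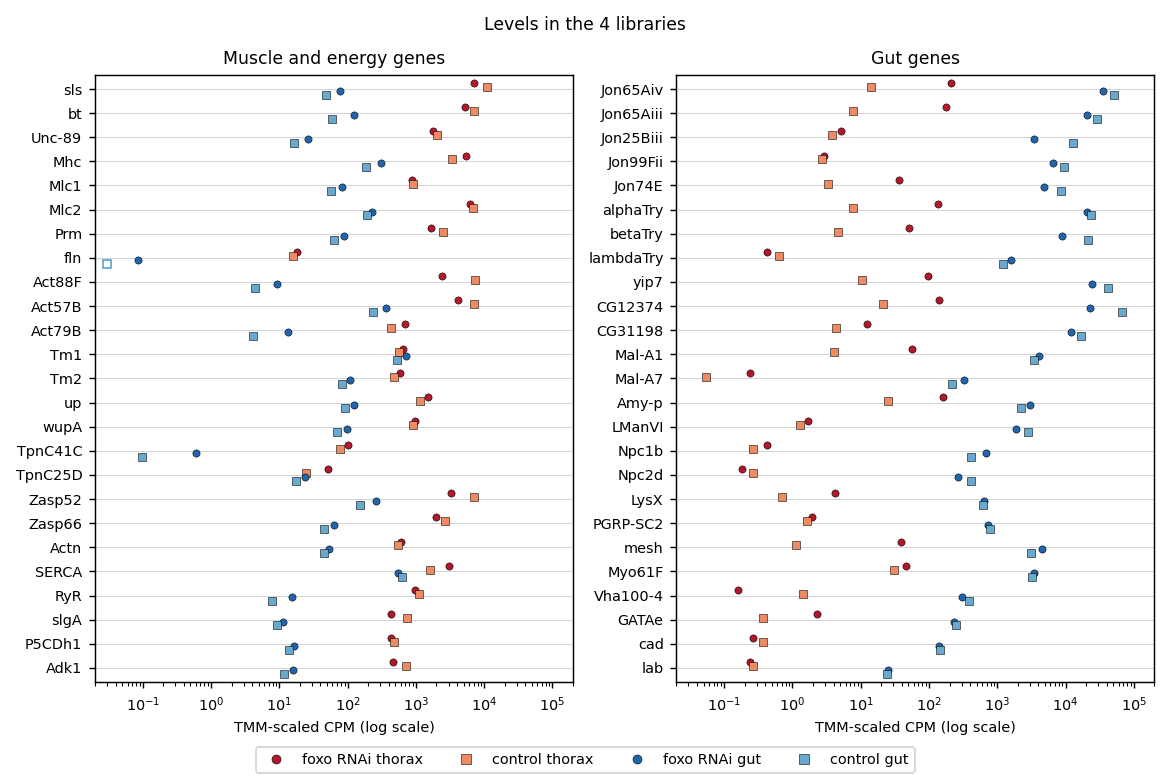
TMM-scaled CPM (log axis) of 25 muscle and energy genes (left) and 25 gut genes (right) in each of the 4 libraries: foxo RNAi thorax, control thorax, foxo RNAi gut and control gut. The hollow square for fln marks 0 reads in control gut and is drawn at 0.03, off the scale of measured values. In the left panel both thorax points lie to the right of both gut points except for Tm1, and in the right panel they lie to the left of them, with foxo RNAi thorax often above control thorax.

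Calcium release and uptake genes were higher in thorax as a group. Of 20 genes for calcium handling and excitation, 16 were higher in thorax and 2 higher in gut, with a median of 2.41. The ryanodine receptor (RyR), the calcium release channel of the sarcoplasmic reticulum, had 974 (foxo RNAi) and 1100.4 (control) CPM in thorax, against 15.5 (foxo RNAi) and 7.85 (control) CPM in gut, with a log2 fold change of 6.48 ± 0.53 (adjusted p = 0.000622, edgeR). Junctophilin (jp), which holds the reticulum against the cell membrane, had 797 (foxo RNAi) and 1022 (control) CPM in thorax, against 31.5 (foxo RNAi) and 22.6 (control) CPM in gut. The calcium pump SERCA, used by all cells to refill the reticulum, had 3072 (foxo RNAi) and 1617 (control) CPM in thorax, against 554 (foxo RNAi) and 634 (control) CPM in gut. Its thorax levels were also above both gut levels, by less (1.95), and without the foxo RNAi gut library its adjusted p was 0.0769 (edgeR), as against 0.0501 without the foxo RNAi thorax library. The sodium channel para, which carries nerve action potentials and was picked after its values were seen, differed by 7.13. The 2 genes higher in gut were the sodium-calcium exchanger Calx (-1.07, adjusted p = 0.0642 with total-count scaling) and calmodulin (Cam, -1.61, adjusted p = 0.0638 without the foxo RNAi thorax library). The count higher in gut was 1 without foxo RNAi thorax, 1 without control thorax, 1 without foxo RNAi gut and 1 without control gut, and 1 with total-count scaling.

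Of 10 neuromuscular genes tested, 6 were higher in thorax and 0 in gut, with a median of 2.07. Neuroligin 1 (Nlg1), a postsynaptic adhesion protein of the fly neuromuscular junction, had 161 (foxo RNAi) and 217 (control) CPM in thorax, against 2.82 (foxo RNAi) and 1.45 (control) CPM in gut, with a log2 fold change of 6.45 ± 0.41 (adjusted p = 0.000469, edgeR). The acetylcholine receptor subunit nAChRalpha1, of the nervous system, had 9.73 (foxo RNAi) and 9.36 (control) CPM in thorax and no reads in gut, at least 70.5-fold higher in thorax when 3 reads are allowed over both gut libraries. GluRIIA, a glutamate receptor subunit of muscle, had 4.30 (foxo RNAi) and 5.89 (control) CPM in thorax, against 2.65 (foxo RNAi) and 2.52 (control) CPM in gut. Its thorax levels were higher in both genotypes but near those of gut, and it was not called (0.95, adjusted p = 0.0670). Among other glutamate receptor subunits, GluRIID was called higher in thorax and GluRIIC was not called. GluRIIB had 2 reads over both gut libraries. Its pooled ratio was 2.13-fold, with an exact 95% counting interval of 0.465 to 19.8 that includes equal levels.

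Transcription factors and splicing factors of muscle followed. Of 18 muscle regulators tested, 11 were higher in thorax, 2 in gut and 5 were not called. Their median was 3.10, or 2.73 with the 2 genes that had no reads in one tissue set to their bound. Mef2, the central muscle transcription factor, had 278 (foxo RNAi) and 252 (control) CPM in thorax, against 55.04 (foxo RNAi) and 63.97 (control) CPM in gut, a log2 fold change of 2.16 ± 0.21 (adjusted p = 0.000971, edgeR). The splicing regulator aret (Bruno), which sets flight muscle splicing in flies, had 218 (foxo RNAi) and 463 (control) CPM in thorax, against 6.41 (foxo RNAi) and 7.37 (control) CPM in gut, a log2 fold change of 5.61 ± 0.59. The homeobox gene hth, which acts with exd in the choice of fibrillar muscle, differed by 2.63, while exd itself was not called (-0.21). Spalt major (salm), which switches muscles to the fibrillar flight type and was picked after its values were seen, had 96.5 (foxo RNAi) and 105 (control) CPM in thorax, against 1.03 (foxo RNAi) and 0.775 (control) CPM in gut. Both thorax libraries were far above both gut libraries, and its log2 fold change was 6.78 ± 0.33 (adjusted p = 0.000392, edgeR). Its neighbour salr (7.83), the wing and flight muscle factor vg (7.36) and the LIM homeobox gene ap (4.82), also picked after their values were seen, were called higher in thorax, and these 4 also act in wing and epidermis. The 2 higher in gut were bap and bin, which specify visceral muscle. Gut levels were 0.513 (foxo RNAi) and 0.582 (control) CPM for bap, with no reads in thorax, and 2.48 (foxo RNAi) and 2.81 (control) CPM for bin, and their count was 1 without foxo RNAi thorax, 1 without foxo RNAi gut and 0 without control gut.

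Muscle attachment and basement membrane genes were mixed. Of 26 tested, 17 were higher in thorax, 2 higher in gut and 7 were not called, with a median of 1.06. The count higher in thorax was 10 without foxo RNAi gut and 10 without control gut. Integrins split by subunit. The alpha subunit gene if, which works in muscle fibres and was picked after its values were seen, had 608 (foxo RNAi) and 623 (control) CPM in thorax, against 22.6 (foxo RNAi) and 14.73 (control) CPM in gut, a log2 fold change of 5.04 ± 0.41. The alpha subunit mew was higher in gut (-1.51), and so was scb, with 106 (foxo RNAi) and 35.4 (control) CPM in thorax, against 1304 (foxo RNAi) and 836 (control) CPM in gut, and a log2 fold change of -4.05 ± 0.41 (adjusted p = 0.00103, edgeR). The shared beta subunit mys had 364 (foxo RNAi) and 369 (control) CPM in thorax, against 886 (foxo RNAi) and 510.4 (control) CPM in gut, and was not called (adjusted p = 0.0547). Collagen IV, the main collagen of basement membranes, is encoded by Cg25C and vkg. Cg25C had 1134 (foxo RNAi) and 714 (control) CPM in thorax, against 21.5 (foxo RNAi) and 23.4 (control) CPM in gut, a log2 fold change of 5.34 ± 0.40, and vkg, picked after its values were seen, differed by 5.27. Perlecan (trol), another basement membrane protein, differed by 0.94 (adjusted p = 0.0208), a call lost without any 1 of the 4 libraries (adjusted p = 0.137 without control gut, edgeR). In flies collagen IV is made largely by fat body and haemocytes, whose markers were also higher in thorax (below), and their part in this result was not tested.

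Energy genes did not shift as one block. Phosphagen and adenylate genes split 2 higher in thorax to 2 higher in gut among 5 tested. Adenylate kinase 1 (Adk1, at chr3L:12200322-12204082 on the minus strand), which regenerates ATP from ADP, had 465 (foxo RNAi) and 725 (control) CPM in thorax, against 15.6 (foxo RNAi) and 11.6 (control) CPM in gut. Its log2 fold change was 5.42 ± 0.37 (adjusted p = 0.000473, edgeR). Arginine kinase (Argk), which buffers ATP in insect muscle, had 1390.4 (foxo RNAi) and 937 (control) CPM in thorax, against 2634 (foxo RNAi) and 2525 (control) CPM in gut. Both thorax libraries lay below both gut libraries, but the call (log2 fold change -1.17 ± 0.32, adjusted p = 0.0287) was lost with total-count scaling (adjusted p = 0.0982) and on leaving out any one library. The counts for this short list were small throughout: higher in thorax 1 without control thorax, 1 without foxo RNAi gut and 1 without control gut, and higher in gut at most 1 with any library left out and 1 with total-count scaling. AMP deaminase (AMPdeam) was at nearly equal levels (0.01, adjusted p = 0.965).

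Glycolytic genes had a median of 0.63, with 5 of 16 tested higher in thorax, 1 higher in gut and 10 not called. Aldolase (Ald) had 4508 (foxo RNAi) and 6933 (control) CPM in thorax, against 929 (foxo RNAi) and 936 (control) CPM in gut, a log2 fold change of 2.57 ± 0.37 (adjusted p = 0.00312, edgeR). Phosphofructokinase (Pfk), the committing enzyme of glycolysis, was picked after its values were seen and differed by 1.77. The glycerol phosphate oxidase Gpo-1, which carries the electrons of cytosolic NADH into flight muscle mitochondria, differed by 2.36. Lactate dehydrogenase (ImpL3) was the member higher in gut, with 33.3 (foxo RNAi) and 22.04 (control) CPM in thorax, against 217 (foxo RNAi) and 139 (control) CPM in gut, a log2 fold change of -2.68 ± 0.38. Enolase (Eno, 0.75) and pyruvate kinase (PyK, 0.64) were not called. The count of glycolytic genes higher in thorax was 3 without foxo RNAi thorax, 3 without foxo RNAi gut and 3 without control gut, but 9 with total-count scaling, which called both Eno (adjusted p = 0.0164) and PyK (adjusted p = 0.0395, edgeR). Storage sugars gave the clearest carbohydrate difference: 5 of 6 glycogen and trehalose genes were higher in thorax, with a median of 2.29. Glycogen phosphorylase (GlyP), which releases glucose units, differed by 2.17 ± 0.29, glycogen synthase (GlyS) by 2.38 ± 0.23 and trehalose phosphate synthase (Tps1), the source of the blood sugar trehalose, by 3.76 ± 0.43. Trehalase (Treh), which splits trehalose, had 331 (foxo RNAi) and 355 (control) CPM in thorax, against 1645 (foxo RNAi) and 1023 (control) CPM in gut, a log2 fold change of -1.97, and without the foxo RNAi gut library its adjusted p was 0.0792 (edgeR). Trehalose is made mainly in fat body, whose genes took more of the reads in thorax than in gut, and its part here was not tested. The receptor of adipokinetic hormone (AkhR), which acts in fat body and was picked after its values were seen, differed by 4.30.

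Mitochondrial genes for substrate oxidation were higher in thorax in part. Of 26 pyruvate dehydrogenase and TCA cycle genes, 11 were higher in thorax and 2 in gut, with a median of 0.68. Leaving out a library lowered the count higher in thorax to 5 without foxo RNAi thorax, 3 without foxo RNAi gut and 4 without control gut, and the count higher in gut to 1 without control thorax, 0 without foxo RNAi gut and 1 without control gut, and total-count scaling gave 1 higher in gut. Nc73EF, the E1 subunit of oxoglutarate dehydrogenase, had 2791 (foxo RNAi) and 4461 (control) CPM in thorax, against 499 (foxo RNAi) and 541 (control) CPM in gut, a log2 fold change of 2.75 ± 0.37 (adjusted p = 0.00246, edgeR). Aconitase (Acon) differed by 1.81, and the iron-sulphur subunit of succinate dehydrogenase (SdhB) by 2.17. The isocitrate dehydrogenase gene Idh was higher in gut, with 356 (foxo RNAi) and 362 (control) CPM in thorax, against 794 (foxo RNAi) and 852 (control) CPM in gut, but not with total-count scaling (adjusted p = 0.0670, edgeR) or without any 1 of the 4 libraries.

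Medians of the respiratory chain lists ran from 0.76 for complex I to -0.17 for ATP synthase and carriers. Counts of called members moved with the libraries and the scaling used. For complexes III and IV the share called higher in thorax was near the 28.1% over all genes tested. Complex I, the NADH dehydrogenase, had 18 of 33 tested genes higher in thorax and 0 in gut, with a median of 0.76. The count was 9 without foxo RNAi thorax, 10 without control thorax, 7 without foxo RNAi gut and 5 without control gut, and the gut count was 1 without foxo RNAi thorax. ND-51, the flavoprotein that takes electrons from NADH, had 1382 (foxo RNAi) and 2918 (control) CPM in thorax, against 322 (foxo RNAi) and 355 (control) CPM in gut, a log2 fold change of 2.59 ± 0.37 (adjusted p = 0.00311, edgeR). Complexes III and IV had 5 of 18 higher in thorax and 1 in gut (median 0.41), and the thorax count was 1 without foxo RNAi thorax, 3 without control thorax, 1 without foxo RNAi gut and 1 without control gut, but 11 with total-count scaling. The Rieske protein RFeSP of complex III differed by 1.84, while COX7A, a small subunit of complex IV, had 82.4 (foxo RNAi) and 77.8 (control) CPM in thorax, against 336 (foxo RNAi) and 390.4 (control) CPM in gut, a log2 fold change of -2.17. Of 16 ATP synthase and carrier genes, 0 were higher in thorax and 2 in gut, and the median was -0.17, or 0.32 with total-count scaling. ATPsynbeta, the catalytic subunit, had 2724 (foxo RNAi) and 3170.3 (control) CPM in thorax, against 2140.0 (foxo RNAi) and 2387 (control) CPM in gut, and its libraries ran close together (log2 fold change 0.38 ± 0.31, adjusted p = 0.341). The 2 higher in gut were the mitochondrial phosphate carrier Mpcp (-1.34, adjusted p = 0.0506 with total-count scaling and 0.122 without control thorax, edgeR) and Ant2, an ADP/ATP carrier gene at low level (-2.80), and their count was 1 without control thorax and 1 without control gut. Total-count scaling called 2 higher in thorax and 1 higher in gut. The other ADP/ATP carrier gene, sesB, took 0% of the reads of sesB and Ant2 in all 4 libraries. It was therefore not tested, and Ant2 alone does not give the level of the carrier.

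Other mitochondrial lists lay near the median of all genes. Fatty acid oxidation had 0 of 13 genes higher in thorax and 3 in gut, with a median of -0.34, or 0.15 with total-count scaling, and the gut count was 1 without foxo RNAi thorax, 1 without foxo RNAi gut and 1 without control gut. Total-count scaling gave 1 higher in thorax and 1 in gut. Mitochondrial ribosomal protein genes had 6 of 71 higher in thorax and 14 in gut, with a median of -0.23, and total-count scaling turned this to 14 higher in thorax and 5 in gut with a median of 0.27. Single libraries moved these counts too. The thorax count was 2 without control thorax, 1 without foxo RNAi gut and 0 without control gut, and the gut count was 5 without foxo RNAi thorax, 8 without control thorax, 3 without foxo RNAi gut and 1 without control gut. Proline oxidation held larger differences, with 3 of 7 genes higher in thorax and 0 in gut, although the median was -0.07 (0.42 with total-count scaling). The gut count was 2 without foxo RNAi carcass and 2 without control carcass. Proline dehydrogenase (slgA, at chrX:21374002-21385159 on the plus strand), the first enzyme of proline breakdown, had 428 (foxo RNAi) and 730.1 (control) CPM in thorax, against 11.4 (foxo RNAi) and 9.11 (control) CPM in gut, a log2 fold change of 5.83 ± 0.46 (adjusted p = 0.000591, edgeR). P5CDh1, which carries out the next step to glutamate, had 429 (foxo RNAi) and 472 (control) CPM in thorax, against 16.4 (foxo RNAi) and 13.7 (control) CPM in gut, a log2 fold change of 4.92 ± 0.28. In foxo RNAi flies slgA was 37.6-fold and P5CDh1 26.1-fold higher in thorax, and in control flies they were 80.1-fold and 34.5-fold higher. Glutamate dehydrogenase (Gdh), which feeds that glutamate into the TCA cycle, was not called (-0.73, adjusted p = 0.165).

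Digestive enzymes made up the other end of the range. All 16 Jonah proteases, chymotrypsin-like enzymes of the midgut, were called higher in gut, with a median of -9.81, or -9.47 with Jon66Cii at its bound. Jon65Aiv (at chr3L:6039155-6040135, plus strand), the member with the most reads, had 212 (foxo RNAi) and 14.3 (control) CPM in thorax, against 35756 (foxo RNAi) and 51975 (control) CPM in gut. The control gut was 1.45-fold above the foxo RNAi gut, and the thorax libraries differed by 14.8-fold, with the foxo RNAi thorax the higher (log2 fold change -8.78 ± 1.72, adjusted p = 0.00908, edgeR). Jon66Cii had 27.0 (foxo RNAi) and 19.1 (control) CPM in gut and no reads in thorax, at least 441-fold higher in gut when 3 reads are allowed over both thorax libraries. Summed over the family, levels were 452 (foxo RNAi) and 42.5 (control) CPM in thorax, against 81059.6 (foxo RNAi) and 148669 (control) CPM in gut. The same order between the thorax libraries recurred for trypsins and other serine proteases, which summed to 342 (foxo RNAi) and 50.7 (control) CPM in thorax, against 81640.0 (foxo RNAi) and 124452 (control) CPM in gut. Of 19 tested, 18 were higher in gut, with a median of -9.60. The trypsin alphaTry had 136 (foxo RNAi) and 7.81 (control) CPM in thorax, against 20631 (foxo RNAi) and 23923 (control) CPM in gut, and the chymotrypsin-like gene yip7 had 96.1 (foxo RNAi) and 10.6 (control) CPM in thorax, against 24529 (foxo RNAi) and 41848 (control) CPM in gut. The member higher in thorax was CG11529, a predicted serine protease at 17.97 (foxo RNAi) and 13.5 (control) CPM in thorax, against 0.513 (foxo RNAi) and 0 (control) CPM in gut. Jonah and trypsin genes are families of close copies, so reads may be split among members.

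Carboxypeptidases, aspartic proteases and sugar enzymes followed the serine proteases. CG12374, a predicted carboxypeptidase, had more control gut reads than any other gene here, with 141 (foxo RNAi) and 21.2 (control) CPM in thorax, against 22831 (foxo RNAi) and 67724 (control) CPM in gut, and a log2 fold change of -9.47 ± 1.42 (adjusted p = 0.00364, edgeR). Of 18 maltases, amylases and mannosidases, 17 were higher in gut, with a median of -7.52. Mal-A7, a maltase, differed by -10.69 ± 0.44 (adjusted p = 0.000392). Mal-A5 was the exception, with 196 (foxo RNAi) and 223 (control) CPM in thorax, against 5.73 (foxo RNAi) and 4.65 (control) CPM in gut. Aspartic and cysteine proteases had 10 of 12 tested higher in gut (median -9.15) and 0 in thorax. Lipases and sterol carriers were split, with 4 of 13 higher in thorax (2 without foxo RNAi thorax and 2 without control gut) and 8 in gut. Npc1b, which takes up dietary sterol in the midgut, had a log2 fold change of -10.56 ± 1.16, while the NPC2 family carriers Npc2g (3.89) and Npc2h (3.64) were higher in thorax. LysX, the 1 lysozyme gene tested, had 4.22 (foxo RNAi) and 0.696 (control) CPM in thorax, against 643 (foxo RNAi) and 609 (control) CPM in gut.

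Of 18 mucin and peritrophic matrix genes, which line the gut lumen, 6 were higher in thorax and 6 in gut, and the thorax count was 3 without control gut. Mur29B, a mucin-related gene, had 34.2 (foxo RNAi) and 20.4 (control) CPM in thorax, against 7250.1 (foxo RNAi) and 4666 (control) CPM in gut, a log2 fold change of -7.77 ± 0.76. Muc68D had 1008 (foxo RNAi) and 2.03 (control) CPM in thorax, against 3299 (foxo RNAi) and 5382 (control) CPM in gut. The 2 thorax libraries lay much further apart than the 2 gut libraries, and it was not called (log2 fold change -2.75, adjusted p = 0.466, edgeR). Without foxo RNAi thorax it was called higher in gut, with a log2 fold change of -13.52 (adjusted p = 0.00690, edgeR). The median of the list was -0.61, and 0.33 without the foxo RNAi gut library.

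Many transcription factors known from the intestine were lower in thorax than in gut. Of 24 tested, 7 were higher in thorax and 13 in gut (median -2.56), and the thorax count was 3 without foxo RNAi gut and 2 without control gut. GATAe (at chr3R:16009105-16019133 on the plus strand), the midgut GATA factor, had 2.26 (foxo RNAi) and 0.375 (control) CPM in thorax, against 231 (foxo RNAi) and 251 (control) CPM in gut, a log2 fold change of -7.52 ± 0.77 (adjusted p = 0.00111, edgeR). The ParaHox gene cad, which patterns the posterior gut, had 0.262 (foxo RNAi) and 0.375 (control) CPM in thorax, against 138 (foxo RNAi) and 144 (control) CPM in gut, and Ptx1, a midgut homeobox gene, had 1.94 (foxo RNAi) and 1.93 (control) CPM in thorax, against 195 (foxo RNAi) and 188 (control) CPM in gut. The stem and progenitor cell factors esg (-5.56) and Sox21a (-7.98) and the enterocyte POU factor nub (-6.44), picked after their values were seen, were higher in gut. Serpent (srp), the GATA factor of fat body and haemocytes, had 100.3 (foxo RNAi) and 100.4 (control) CPM in thorax, against 10.7 (foxo RNAi) and 15.99 (control) CPM in gut, higher in thorax by 2.95 ± 0.25. The gene pnr, for the GATA factor of the dorsal thorax epidermis and heart, was also higher in thorax, with 12.6 (foxo RNAi) and 8.88 (control) CPM in thorax, against 0.171 (foxo RNAi) and 0.0969 (control) CPM in gut. The GATA gene grn (2.25), pros (2.02), zfh2 (1.13), Snoo (0.96) and the receptor Notch (N, 0.85) made up the rest of the 7. Hnf4, a nuclear receptor of several metabolic tissues, was among the 4 not called (-0.17).

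Enterocyte surfaces and ion pumps gave the next group. Myo61F, a myosin of the enterocyte brush border, had 46.3 (foxo RNAi) and 31.2 (control) CPM in thorax, against 3479.7 (foxo RNAi) and 3232 (control) CPM in gut, a log2 fold change of -6.44 ± 0.47 (adjusted p = 0.000504, edgeR). Mesh, a protein of the smooth septate junctions found between gut cells, had 39.01 (foxo RNAi) and 1.12 (control) CPM in thorax, against 4462 (foxo RNAi) and 3170.2 (control) CPM in gut, and its foxo RNAi thorax was 34.7-fold above its control thorax. Nrx-IV (1.51) and sinu (1.59, adjusted p = 0.0509 without foxo RNAi gut, edgeR), proteins of the pleated septate junctions of other epithelia and glia, were higher in thorax. Their partner cora (0.78) was not called, and the polarity genes scrib (-0.83) and l(2)gl (-2.14) were higher in gut, all picked after their values were seen. Of 13 brush border and junction genes tested, 4 were higher in thorax and 7 in gut. The vacuolar proton pump, which acidifies the copper cell region and organelles, had 4 of 22 tested genes higher in thorax and 17 higher in gut (median -1.83), and the thorax count was 2 without foxo RNAi thorax, 2 without foxo RNAi gut and 2 without control gut. Vha16-1, the proteolipid ring subunit, had 1332 (foxo RNAi) and 1087 (control) CPM in thorax, against 4842 (foxo RNAi) and 5622 (control) CPM in gut, a log2 fold change of -2.12 ± 0.34. Vha100-4 (at chr3R:18386841-18389805 on the minus strand), a form of the membrane subunit a, had 0.157 (foxo RNAi) and 1.44 (control) CPM in thorax, against 303 (foxo RNAi) and 382 (control) CPM in gut, a log2 fold change of -9.13 ± 0.78 (adjusted p = 0.000680). Vha36-3 was the opposite, with 55.1 (foxo RNAi) and 48.05 (control) CPM in thorax, against 0.342 (foxo RNAi) and 0.194 (control) CPM in gut, and Vha68-1 was also higher in thorax (4.57).

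Nutrient, metal and ion transport genes were mostly higher in gut: 4 of 30 were higher in thorax and 16 in gut, with a median of -1.39, and the thorax count was 2 without foxo RNAi gut and 7 with total-count scaling. Ferritin, the iron store of the midgut and haemolymph, is made from Fer1HCH and Fer2LCH. Fer1HCH had 768 (foxo RNAi) and 1127 (control) CPM in thorax, against 7626 (foxo RNAi) and 5571 (control) CPM in gut, a log2 fold change of -2.81 ± 0.41 (adjusted p = 0.00328, edgeR), and Fer2LCH differed by -2.67 ± 0.37. The copper importer Ctr1B had 5.67 (foxo RNAi) and 6.96 (control) CPM in thorax, against 229.6 (foxo RNAi) and 682 (control) CPM in gut, a log2 fold change of -5.94 ± 0.43, and the copper-binding metallothionein MtnC (-7.21) and the amino acid transporter slif (-4.66), picked after their values were seen, were also higher in gut. The glucose transporter Glut1 was higher in thorax (1.99). Gut peptide hormones had 0 of 13 genes higher in thorax and 5 in gut (3 without foxo RNAi gut). The thorax count was 1 without foxo RNAi carcass and 1 without control carcass, and 1 with total-count scaling. Tachykinin (Tk) had 3.99 (foxo RNAi) and 2.03 (control) CPM in thorax, against 125 (foxo RNAi) and 119 (control) CPM in gut, a log2 fold change of -5.30 ± 0.69 (adjusted p = 0.00223), and allatostatin C (AstC) differed by -5.44, with an adjusted p of 0.0579 without the foxo RNAi gut library. NPF, a peptide of gut and brain picked after its values were seen, differed by -5.69.

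Some paralogous genes switched between the tissues. Other pairs kept the same majority gene in all 4 libraries, such as Men with Men-b and nrv1 with nrv3. Of the reads on Act88F and Act5C together, Act88F took 67.4% (foxo RNAi) and 90.8% (control) in thorax, against 0.0592% (foxo RNAi) and 0.0369% (control) in gut. TpnC41C took 98.96% (foxo RNAi) and 99.7% (control) in thorax, against 3.68% (foxo RNAi) and 0.610% (control) in gut, of the reads it shares with TpnC47D. Muscle myosin heavy chain (Mhc) against the non-muscle heavy chain zip took 93.8% (foxo RNAi) and 87.3% (control) in thorax, against 21.3% (foxo RNAi) and 18.3% (control) in gut. For the regulatory light chains, Mlc2 against the non-muscle gene sqh took 95.9% (foxo RNAi) and 97.8% (control) in thorax, against 23.8% (foxo RNAi) and 28.1% (control) in gut. In each of these 4 pairs the muscle gene held the majority of reads in both thorax libraries and the minority in both gut libraries. Proton pump subunits also switched: Vha100-1 took 99.9% (foxo RNAi) and 99.1% (control) in thorax, against 26.1% (foxo RNAi) and 18.9% (control) in gut, of the reads of Vha100-1 and Vha100-4. Of the 2 translation elongation factor genes, Ef1alpha48D took 89.9% (foxo RNAi) and 83.3% (control) in thorax, against 99.9% (foxo RNAi) and 99.97% (control) in gut, and Ef1alpha100E took the rest. The pairs differ in sequence likeness, which was not measured, and shares are of reads, not of length-scaled levels.

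**Figure D4:**
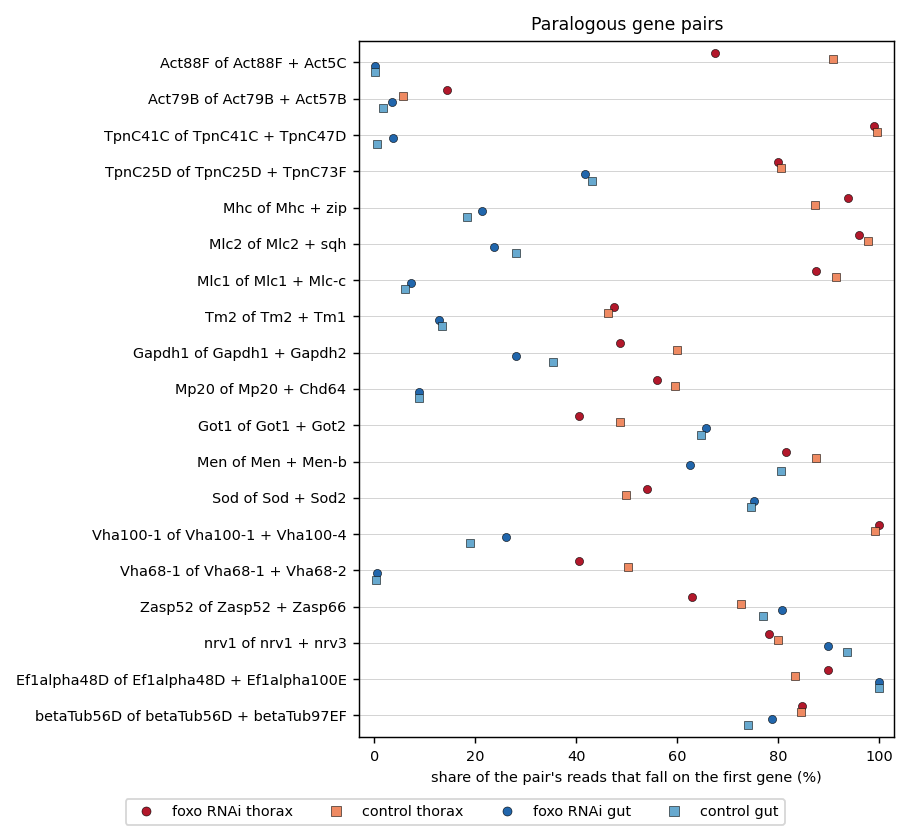
Share of a pair's reads (%) that fall on the first gene named, for 19 paralogous pairs, in foxo RNAi thorax, control thorax, foxo RNAi gut and control gut. The pairs Act88F with Act5C, TpnC41C with TpnC47D, Mhc with zip and Mlc2 with sqh place their thorax points towards the right and their gut points towards the left, while the pairs of metabolic genes, such as Got1 with Got2, differ by less.

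Immune genes went both ways. Of 23 antimicrobial and related immune peptides, 19 were higher in thorax and 2 in gut, with a median of 4.62. IM2, a small secreted peptide of the Toll response, had 800.3 (foxo RNAi) and 876 (control) CPM in thorax, against 35.8 (foxo RNAi) and 35.2 (control) CPM in gut, a log2 fold change of 4.55 ± 0.36 (adjusted p = 0.000595, edgeR), and IM4 differed by 6.01 ± 0.31. The 2 higher in gut were drosomycin-like genes, Drsl2 (-5.22) and Drsl3 (-4.63, adjusted p = 0.0600 without control gut, edgeR). Peptides of this kind are secreted largely by fat body and haemocytes, whose markers were higher in thorax, and their part was not tested. Peptidoglycan recognition and gut immunity genes had 9 of 18 higher in thorax and 6 in gut. PGRP-SC2, an amidase that removes bacterial peptidoglycan in the gut, had 1.97 (foxo RNAi) and 1.66 (control) CPM in thorax, against 728 (foxo RNAi) and 792 (control) CPM in gut, a log2 fold change of -8.74 ± 0.50 (adjusted p = 0.000442). Duox, an oxidase of the gut and cuticle picked after its values were seen, had a log2 fold change of 4.69 ± 0.37, higher in thorax. The NF-kB factor dl was higher in thorax (1.78), and pirk, which restrains the Imd pathway, was higher in gut (-1.75, adjusted p = 0.0696 without foxo RNAi gut, edgeR).

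Detoxification enzymes were also split. Of 60 cytochrome P450 genes, 12 were higher in thorax and 20 in gut (median -0.52), and 7 were higher in thorax without the control gut library and 11 higher in gut without the foxo RNAi gut library. Cyp9b2 had 79.7 (foxo RNAi) and 114 (control) CPM in thorax, against 1287 (foxo RNAi) and 844 (control) CPM in gut, a log2 fold change of -3.55 ± 0.59. Cyp6w1 went the other way, with 242 (foxo RNAi) and 186 (control) CPM in thorax, against 28.1 (foxo RNAi) and 28.01 (control) CPM in gut, a log2 fold change of 2.93 ± 0.25. Glutathione transferases had 5 of 32 higher in thorax and 14 in gut (median -1.02), and the thorax count was 3 without foxo RNAi thorax, 2 without foxo RNAi gut and 2 without control gut. GstS1, a sigma class enzyme abundant in flight muscle, was higher in thorax by 1.75 ± 0.22, and GstT4 was higher in gut, with a log2 fold change of -2.51 ± 0.35.

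With TMM scaling, ribosomal, proteasome and chaperone genes that were called were mostly higher in gut, but these counts moved with the scaling or the libraries used. For the proteasome the share higher in gut was no larger than the 26.5% over all genes tested. Cytosolic ribosomal protein genes had 1 of 83 higher in thorax and 28 in gut, with a median of -0.80. With total-count scaling the median was -0.30 and 1 was called higher in gut. The count higher in gut was 0 without foxo RNAi thorax, 0 without control thorax, 2 without foxo RNAi gut, 0 without control gut, 13 without foxo RNAi carcass and 11 without control carcass, and that higher in thorax was 0 without control thorax, 0 without foxo RNAi gut and 0 without control gut. Proteasome genes had 0 of 33 higher in thorax and 8 in gut, with a median of -0.21, or 0.27 with total-count scaling, and the gut count was 1 without foxo RNAi thorax, 2 without control thorax, 1 without foxo RNAi gut and 1 without control gut. Total-count scaling gave 3 higher in thorax and 1 in gut. Of 18 chaperone genes, 3 were higher in thorax and 7 in gut (4 without foxo RNAi gut and 3 without control gut). Hsc70-1 had 297 (foxo RNAi) and 335 (control) CPM in thorax, against 1.88 (foxo RNAi) and 0.678 (control) CPM in gut, a log2 fold change of 7.94 ± 0.50 (adjusted p = 0.000466, edgeR), and the small heat shock gene CG14207 had 853 (foxo RNAi) and 1216 (control) CPM in thorax, against 83.2 (foxo RNAi) and 69.7 (control) CPM in gut. The abundant chaperones Hsc70-4 (-0.41) and Hsp83 (-0.04) were not called.

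Secreted signals and receptors had 11 of 32 genes higher in thorax and 5 in gut, and the gut count was 3 without foxo RNAi thorax, 3 without control thorax, 3 without foxo RNAi gut and 3 without control gut, and 3 with total-count scaling. ImpL2, a secreted protein that binds insulin-like peptides, had 677 (foxo RNAi) and 401 (control) CPM in thorax, against 92.04 (foxo RNAi) and 42.8 (control) CPM in gut, a log2 fold change of 3.02 ± 0.51 (adjusted p = 0.00558, edgeR). Hedgehog (hh), a morphogen, had 0.236 (foxo RNAi) and 0.214 (control) CPM in thorax, against 47.005 (foxo RNAi) and 45.3 (control) CPM in gut, a log2 fold change of -7.61 ± 0.35. Pvf1, a ligand of the PDGF and VEGF receptor of flies, differed by -2.67, and the triglyceride lipase bmm by -1.94, both higher in gut. The translation inhibitor Thor, a target of foxo, had 647 (foxo RNAi) and 1307 (control) CPM in thorax, against 415 (foxo RNAi) and 634 (control) CPM in gut, and was not called (adjusted p = 0.0667). The transcript of foxo itself (at chr3R:14056945-14087978 on the plus strand) had 131 (foxo RNAi) and 183 (control) CPM in thorax, against 88.1 (foxo RNAi) and 111 (control) CPM in gut. The foxo RNAi library was below the control library in each tissue, and thorax was above gut in each genotype (0.65 ± 0.19, adjusted p = 0.0323, edgeR), a call lost without any 1 of the 4 libraries. The hairpin targets this gene in flight muscle, so its thorax level is part of the design.

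Most Hox genes tested were higher in thorax. Of 8 tested, 5 were higher in thorax and 1 in gut, and the thorax count was 3 without foxo RNAi gut and 3 without control gut. Antp, the Hox gene of the thoracic segments, had 23.2 (foxo RNAi) and 21.6 (control) CPM in thorax, against 6.32 (foxo RNAi) and 4.46 (control) CPM in gut, a log2 fold change of 2.07 ± 0.28 (adjusted p = 0.00246, edgeR). Ubx, of the hind thorax, differed by 2.70 ± 0.35. Gut levels of other members rest on few reads. The pooled ratio of pb, with 1 gut read, was 28.3-fold (exact 95% counting interval 4.92 to 1133). That of Scr, with 2 gut reads, was 109-fold (30.0 to 902). Ubx, abd-A and pb were not called with limma on log2(RPKM + 1). The one higher in gut was lab, which specifies the copper cells of the midgut, with 0.236 (foxo RNAi) and 0.268 (control) CPM in thorax, against 25.4 (foxo RNAi) and 24.5 (control) CPM in gut, a log2 fold change of -6.64 ± 0.43. Circadian clock genes had 0 of 8 higher in thorax and 1 in gut, with a median of -0.08, or 0.41 with total-count scaling. The thorax count was 1 without foxo RNAi carcass and 1 without control carcass, and 1 with total-count scaling. The gene called higher in gut was cyc, a core activator of the clock (-1.38).

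Markers of the other cell types of an intact thorax, and genes of oenocytes, were mostly higher in thorax than in gut as well. Fat body markers had 12 of 17 higher in thorax and 0 in gut (median 2.98), the gut count being 1 without foxo RNAi carcass and 1 without control carcass, and they summed to 49794 (foxo RNAi) and 46272 (control) CPM in thorax, against 3033 (foxo RNAi) and 5193 (control) CPM in gut. The yolk protein gene Yp2, expressed in female fat body, had 9414 (foxo RNAi) and 13874 (control) CPM in thorax, against 464 (foxo RNAi) and 789 (control) CPM in gut. The lipoprotein gene Rfabg, which encodes the main lipid carrier of the blood, had 11216 (foxo RNAi) and 7077 (control) CPM in thorax, against 173 (foxo RNAi) and 215 (control) CPM in gut, a log2 fold change of 5.60 ± 0.62 (adjusted p = 0.00133, edgeR). Lsp1alpha and Lsp2, storage protein genes of larval fat body, had no reads in gut, which by itself does not show an excess in thorax. All 14 neuronal markers tested were higher in thorax (median 4.64) and summed to 1515 (foxo RNAi) and 1636 (control) CPM in thorax, against 151 (foxo RNAi) and 127 (control) CPM in gut. The glutamate transporter VGlut of motor neurons had 57.5 (foxo RNAi) and 54.5 (control) CPM in thorax, against 0.171 (foxo RNAi) and 0.194 (control) CPM in gut. Haemocyte markers had 11 of 13 higher in thorax (median 5.34) and summed to 5451 (foxo RNAi) and 4439 (control) CPM in thorax, against 338 (foxo RNAi) and 350.5 (control) CPM in gut. Much of this sum lay in Nplp2. Without it the list's share of thorax reads fell from 0.604% to 0.311% (foxo RNAi) and from 0.461% to 0.211% (control). The list also holds Cg25C, which fat body makes too. Hemolectin (Hml), the clotting protein that defines haemocytes, had 906 (foxo RNAi) and 646 (control) CPM in thorax, against 8.38 (foxo RNAi) and 6.49 (control) CPM in gut. Tracheal markers had 8 of 9 higher in thorax and summed to 742 (foxo RNAi) and 815 (control) CPM in thorax, against 138 (foxo RNAi) and 132 (control) CPM in gut. Cuticle and epidermis genes had 20 of 30 higher in thorax and 2 in gut (1 without control gut). All 5 oenocyte genes tested, of the cells that make cuticular lipids, were higher in thorax, or 3 without foxo RNAi gut and 3 without control gut. They summed to 199 (foxo RNAi) and 590.1 (control) CPM in thorax, against 22.6 (foxo RNAi) and 58.9 (control) CPM in gut. In carcass they summed to 2911 (foxo RNAi) and 5160 (control) CPM, far above thorax, so these values do not show that the thorax holds oenocytes. How much of any gene group above came from the cell types of this paragraph was not tested.

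Genes of tissues next to the gut were read as well. Malpighian tubule genes had 3 of 21 higher in thorax and 12 in gut, and summed to 1135 (foxo RNAi) and 982 (control) CPM in thorax, against 1765 (foxo RNAi) and 3476 (control) CPM in gut. The control gut was 1.97-fold above the foxo RNAi gut. Ovary and eggshell genes had 0 of 15 higher in thorax and 9 in gut (4 without foxo RNAi thorax), and summed only to 3.59 (foxo RNAi) and 4.12 (control) CPM in thorax, against 36.3 (foxo RNAi) and 30.9 (control) CPM in gut. Photoreceptor genes, named for cells that neither dissection should hold, had 4 of 13 called higher in thorax, beside 28.1% of all genes tested. This count moved widely when single libraries were left out. These genes summed to 184 (foxo RNAi) and 157 (control) CPM in thorax, against 58.4 (foxo RNAi) and 55.2 (control) CPM in gut. Their median of 3.98 was 2.51 with the genes at no reads in gut set to their bound. Without norpA, the most abundant member, their share of thorax reads fell from 0.0204% to 0.0122% (foxo RNAi) and from 0.0163% to 0.00922% (control). Whether members of this list were read from other cell types was not tested. Muscle markers in gut were not at 0: the thick filament list summed to 23575 (foxo RNAi) and 25953 (control) CPM in thorax, against 1033 (foxo RNAi) and 724 (control) CPM in gut. The gut has its own visceral muscle, and its part in these gut values was not tested.

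**Figure D5:**
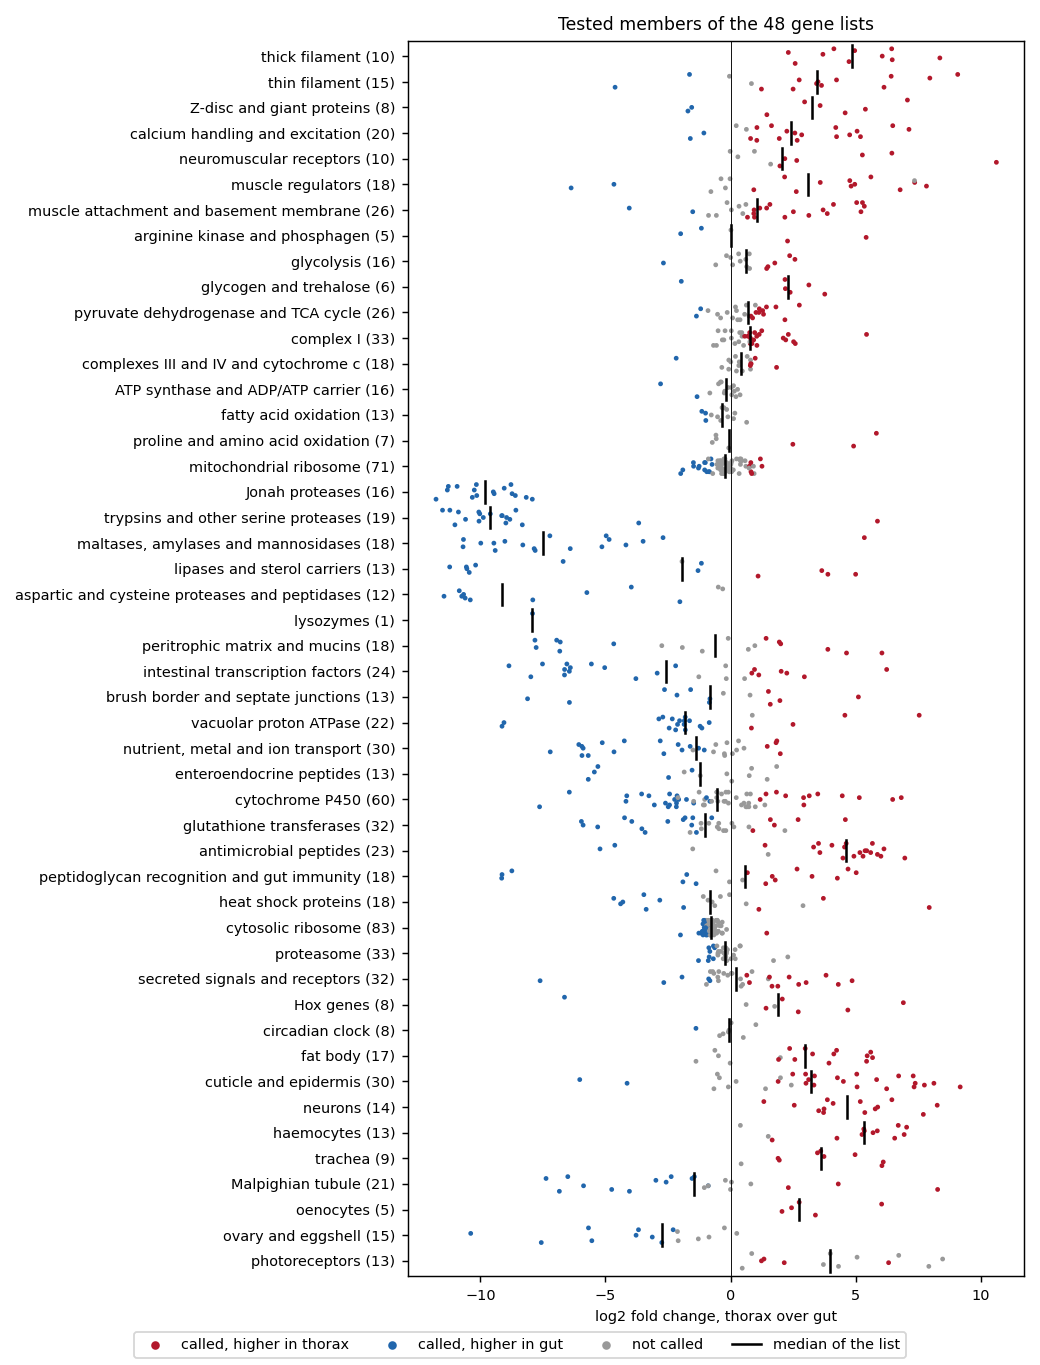
Log2 fold change of thorax over gut for the tested members of 48 gene lists (number tested in brackets), coloured by call, with the median of each list as a black bar. Filament and other thorax lists lie to the right, digestive lists to the left, with medians from -9.81 for Jonah proteases to 5.34 for haemocytes, and fitted values of genes with no reads in one tissue are shown although they are no bound.

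Some of the largest single differences were in other genes. Among called genes with at least 10 CPM in both libraries of the higher tissue and a name other than a number, the 12 with the largest fitted fold changes on the thorax side included robo3, an axon guidance receptor, and RSG7, a regulator of G protein signalling. Fitted values of genes with no gut reads are not measured ratios, so the 12 are not ranked here. Robo3 had 12.2 (foxo RNAi) and 13.5 (control) CPM in thorax and no reads in gut, at least 92.5-fold higher when 3 reads are allowed over both gut libraries. RSG7 was at least 86.6-fold higher by the same floor. Some of the other genes had reads in gut. The neuropeptide gene FMRFa had 26.9 (foxo RNAi) and 31.4 (control) CPM in thorax, against 0.0855 (foxo RNAi) and 0 (control) CPM in gut, the acetylcholine receptor subunit nAChRbeta1 had 66.9 (foxo RNAi) and 75.9 (control) CPM in thorax, against 0.256 (foxo RNAi) and 0.0969 (control) CPM in gut, and the chloride channel gene pHCl had 209 (foxo RNAi) and 273 (control) CPM in thorax, against 1.20 (foxo RNAi) and 0.291 (control) CPM in gut. The FMRFa ratio was 624-fold with an exact 95% counting interval of 112 to 24664, since its gut level rests on 1 read. At the gut end, Ag5r2, a secreted protein of the antigen 5 family, had 0.892 (foxo RNAi) and 0.268 (control) CPM in thorax, against 2245 (foxo RNAi) and 3847 (control) CPM in gut, a log2 fold change of -11.91 ± 1.90 (adjusted p = 0.00450, edgeR). Next came Jonah proteases, the trypsin lambdaTry (-11.51) and Crys, a lens protein also found in the peritrophic matrix (-10.80).

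Per kilobase of exon, which allows levels of different genes to be compared, digestive enzymes in gut exceeded the contractile genes in thorax. Jon65Aiv reached 48524 CPM per kilobase in gut, yip7 36713 and CG12374 30927, as means of 2 libraries. Act57B reached 3267 CPM per kilobase in thorax, Act88F 3029 and Mlc2 2856. The yolk protein gene Yp2 stood above these in thorax, at 7197 CPM per kilobase. Higher still in thorax were the uncalled genes CG16826 (16541), CG1678 (13492), CG45080 (13266) and lcs (12144), described in the closing section. These ranks cover measured genes only, and exon lengths are of the merged exons in the Ensembl annotation.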

How the data were processed

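Stranded libraries of total RNA were prepared from thorax, gut and carcass and sequenced as single reads of 50 bases, and reads were mapped to Release 6 of the fly genome, per the labels' protocols and design text. The sources used here do not name the aligner, the counting tool, the annotation or the strand setting. The authors deposited raw read counts per gene, with non-coding genes listed at 0, and RPKM values computed over each gene's whole genomic span. Multiplied out, the deposited RPKM values gave whole reads for 100% of genes (tolerance 0.001). Counted reads were 13274574 to 34385727 per library, more than the design text states was sequenced, and this was not resolved. Counting error is therefore small against the spread between libraries, except for genes with few reads.

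Counts were tested with edgeR 4.0.16 in R 4.3.3 (glmQLFit, glmQLFTest, TMM scaling, filterByExpr by tissue, a model of tissue and genotype over 6 libraries, 2 residual degrees of freedom), as thorax over gut, with p-values adjusted by Benjamini and Hochberg over 9293 genes and called under 0.05. SE is the fold change divided by the square root of F. The script was tested on simulated data. Alternatives were DESeq2 1.42.0, DESeq2 size factors, total-count scaling, limma 3.58.1 on log2(RPKM + 0.1) and log2(RPKM + 1), other filters, the 4 libraries alone, no genotype term, no overlapping genes and leaving out each library. Where a tissue keeps 1 library, it is assumed to vary like the rest. Floors are 3 counts over both libraries of a tissue. Intervals and floors cover counting error only.

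Genes named are foxo; per direction the 12 called genes with the largest share of reads and the 12 with the largest fold change (at least 10 CPM in both libraries of the higher tissue, with a name other than a number); per list the 5 with the highest mean CPM and called members that go against most of the list; both genes of each pair; and any member of a list of 12 or fewer. The genes said to be picked after their values were seen, and those of the closing section, stand outside this rule. Members and lists were chosen with earlier results of these data known. Gene names were matched to RefSeq for 17565 of 17609 listed genes. Promoter and protein sequences are not used here. Genotype is a term of the model, so thorax and gut were compared within each genotype. No paired analysis by replicate number was run, since the labels carry none.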

Additional observations from a re-analysis of the deposited data

Results flagged for a closer look

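A total of 23 tested genes had ratios of thorax over gut that were at least 2-fold in opposite directions in the 2 genotypes, and 6 of these reached 10 CPM in each genotype. With 1 library per genotype and tissue, the difference between genotypes was not tested for any of them. Hsp70Bb, a stress-induced chaperone gene with near-identical copies, had 1134 (foxo RNAi) and 1.28 (control) CPM in thorax, against 19.7 (foxo RNAi) and 21.5 (control) CPM in gut. Its log2 ratio was 5.85 in foxo RNAi flies and -4.04 in control flies, so that a single library, foxo RNAi thorax, stood far above the other 3. The glutathione transferase GstD5 had log2 ratios of -4.04 in foxo RNAi flies and 1.04 in control flies, and GstD9 had -1.63 in foxo RNAi flies and 1.30 in control flies. Sodh-1, a sorbitol dehydrogenase gene, had 1.41 in foxo RNAi flies and -1.37 in control flies. CG7589 had 1.23 in foxo RNAi flies and -1.34 in control flies, and CG15695 had -1.72 in foxo RNAi flies and 1.04 in control flies. None of these 6 genes was called between thorax and gut.

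Signal was also present where the count columns hold 0. Reads recovered from the deposited RPKM values placed 44 genes listed at 0 counts, most of them non-coding, at 10 CPM or more in at least 1 library. Of these, 16 were at least 2-fold higher in thorax in both genotypes, 14 were at least 2-fold higher in gut in both, and 11 were at least 8-fold higher in thorax in both. The long non-coding RNA CR31781 had 50756 (foxo RNAi) and 28564 (control) reads in thorax, against 187 (foxo RNAi) and 154 (control) reads in gut. CR45605 had 900.0 (foxo RNAi) and 261 (control) reads in thorax, against 2 (foxo RNAi) and 2 (control) reads in gut. CR44754 had 824 (foxo RNAi) and 672 (control) reads in thorax, against 2 (foxo RNAi) and 8 (control) reads in gut. CR44651 had 708 (foxo RNAi) and 633 (control) reads in thorax and 0 reads in both gut libraries, which allows up to 3 reads there. No test was run on these reads.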

How the results depend on the processing

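Calls between thorax and gut kept their direction under every alternative run for the named genes: 0 reversed. Of the 308 named genes called, 218 kept their call under all alternatives, and 86 lost it on leaving out some 1 library. Leaving out 1 library gave 2821 to 5366 genes called, 1556 to 2700.0 higher in thorax and 1265 to 2666 higher in gut, with the lowest values without control gut. Genes higher in gut numbered 1546 with total-count scaling, 1611 with limma on log2(RPKM + 0.1) and 1530.0 with limma on log2(RPKM + 1), against 2459 with TMM, and the matching counts higher in thorax were 3450.0, 3401 and 3217. Without genes overlapping another coding gene, 3314 were called, 1725 higher in thorax and 1589 in gut, since fewer genes were tested. DESeq2 called 5371 and the 4 libraries alone 5516. Total-count scaling turned the sign of the medians of 6 lists, given beside them. Depth limits ratios for genes with under 4 reads in 1 tissue.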

Other observations

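The gene with the most reads in both thorax libraries was not a filament gene and was not called. CG16826, a short gene of unknown function, had 19243 (foxo RNAi) and 22043 (control) CPM in thorax, against 784 (foxo RNAi) and 26.0 (control) CPM in gut. It was 24.6-fold higher in thorax in foxo RNAi flies and 847-fold higher in control flies, and its log2 fold change was 5.59 ± 2.35 (adjusted p = 0.0955, edgeR). The genes lcs, CG1678 and CG45080 showed the same shape. Of these, lcs had 6889.6 (foxo RNAi) and 7441 (control) CPM in thorax, against 336 (foxo RNAi) and 23.4 (control) CPM in gut, CG1678 had 4445 (foxo RNAi) and 7266 (control) CPM in thorax, against 267 (foxo RNAi) and 6.88 (control) CPM in gut, and CG45080 had 3743 (foxo RNAi) and 3686 (control) CPM in thorax, against 162 (foxo RNAi) and 4.17 (control) CPM in gut. In each, the gut libraries differed by more than 10-fold while the thorax libraries were closer together. Conversely CG15043 had 108 (foxo RNAi) and 0.803 (control) CPM in thorax, against 5606 (foxo RNAi) and 3519 (control) CPM in gut, and CG10910 had 79.2 (foxo RNAi) and 0.375 (control) CPM in thorax, against 3818 (foxo RNAi) and 2598 (control) CPM in gut, with the large gap between the thorax libraries. These 6 genes were picked after their values were seen, as uncalled genes with at least 0.2% of reads and at least 8-fold differences in both genotypes, and all 6 were called with the 4 libraries alone and with DESeq2. With the 4 libraries alone the log2 fold change of CG16826 was 7.20, so the carcass libraries moved its fitted value.

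Non-coding RNAs with known roles were read as well. The RNA roX1, which coats the X chromosome in male flies, had 4.62 (foxo RNAi) and 11.8 (control) CPM in thorax, against 0.256 (foxo RNAi) and 0.291 (control) CPM in gut, while yolk protein genes, expressed in female fat body, were among the most abundant of thorax. The labels do not give the sex of the flies. Hsromega, a stress-related nuclear RNA, had 213 (foxo RNAi) and 216 (control) CPM in thorax, against 185 (foxo RNAi) and 213 (control) CPM in gut, with ratios close to 1 in both genotypes.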
